A study of Drosophila melanogaster with 60 samples.

Results

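The probes described here were low through the early hours of metamorphosis and stood on a high plateau at 72 and 96 h after puparium formation (APF) in the somatic tissues of animals that lack a germline. Of 15744 probes without control elements, 12342 had a value on at least 1 array and 3241 had values on 2 or more of the 3 arrays in all 10 groups of tud progeny. A member had to be higher by 1.5 or more on the log2 scale at both 72 and 96 h than at each of 0, 24 and 48 h, in the mean of the tud sexes, with 72 and 96 h less than 0.5 apart. The mean difference of wild type males from tud males had to stay under 1. The members were thus chosen by the tud time course and the male genotype difference. These conditions gave 26 members out of 3090 probes under that last limit, and without the limit the number was also 26. The values used in the choice are given as a description, while the tests are those of the wild type time course and of the sex differences.

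RNA of whole animals was compared with a common reference, RNA of wild type pupae of both sexes and all stages, on 60 two-colour arrays with 3 arrays in each of 20 groups. The wild type was the Canton S strain. The tud progeny were the offspring of tud1 bw1 sp1 females, homozygous for a maternal-effect mutation of tudor, and of y, w males with a GFP transgene on the X chromosome, so that daughters could be told from sons by fluorescence. Males and females of both genotypes were collected at 0, 24, 48, 72 and 96 h APF, each sample being RNA pooled from many pupae, and nothing in the labels says whether the 3 samples of a group came from separate cultures. The p-values measure only the spread between these samples, and the loss of the germline cannot be told apart from the difference in genetic background. Each value is a log2 ratio of sample to reference, so that 1 unit is a doubling, and ratios of different probes cannot be ranked against each other as levels. Between 3954 and 10236 probes had a value per array (median 6519.5). That a positive ratio means more in the sample was taken from lncRNA:roX1, a male-specific RNA of dosage compensation, whose ratio ran from 0.30 to 1.88 in wild type males and from -6.12 to -2.45 in wild type females. Since whole animals were used, fewer cells of a type and less RNA per cell cannot be told apart.

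In the fly, metamorphosis breaks down most larval muscle and builds the adult musculature, including the flight muscles of the thorax, from myoblasts. Their contractile fibres are made of actin and myosin filaments whose sliding is switched by calcium through the troponin complex, and they are fuelled by glycolysis coupled to mitochondria through the glycerol phosphate shuttle. In the same period the epidermis lays down the adult cuticle, which hardens and darkens towards eclosion. The larval fat body persists into the pupa and is lost around the time the adult emerges.

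Of the 26 members, 7 had a gene name and 19 are given by probe identifier. The named members were up (upheld), which encodes the troponin T of the sarcomere, Act79B, an actin isoform of adult muscles, and Gpo1, the mitochondrial glycerol-3-phosphate dehydrogenase of the glycerol phosphate shuttle. The others were CG13059, CG14752, CG42319 and the long non-coding RNA lncRNA:CR31781, for which no role is stated here. They lie on chromosome X (up), 2L (lncRNA:CR31781), 2R (Gpo1, CG14752 and CG42319) and 3L (Act79B and CG13059). Whether the Act79B probe also bound transcripts of other actin genes was not examined. Names came from gene lists published with the study, which cover 19.0% of the probes with a value, so most named probes are ones the study had itself listed.

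In tud progeny the size of the step varied widely among the members. The rise, counted from the highest of the 3 early hours to the lower of the 2 late hours, ran from 1.52 to 8.07 with a median of 2.14. The steepest were DAC025G23 with 8.07, DAC034F09 with 7.28 and CG13059 with 5.11, while lncRNA:CR31781 with 1.54 and DAC035N11 with 1.52 lay just inside the limit. Just outside it lay DAC022H21 with 1.45 and Mlc1, a myosin light chain gene, with 1.47. At the plateau, DAC034F09 with a difference of -0.45 between 96 and 72 h and DAC031B24 with 0.46 lay just inside, and DAC022F09 and DAC011H04, both with 0.51, just outside. The members closest to the limit on the male genotype difference were up with 0.39 and Gpo1 with 0.33. For 19 of the 26 members 48 h was the highest of the early hours, for 4 it was 24 h and for 3 it was 0 h. The members had thus reached the plateau by different routes. Gpo1 rose by 4.27 and Act79B by 3.12 in tud progeny between 24 and 48 h and by 1.91 and 1.81 between 48 and 72 h. For CG13059 the same 2 steps were -0.63 and 6.31, so that nearly all of its change fell after 48 h. The early ratios of the steepest members were very low, and a ratio that low may come from a sample signal not above background, so the rises of DAC025G23 and DAC034F09 may be understated.

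**Figure D1:**
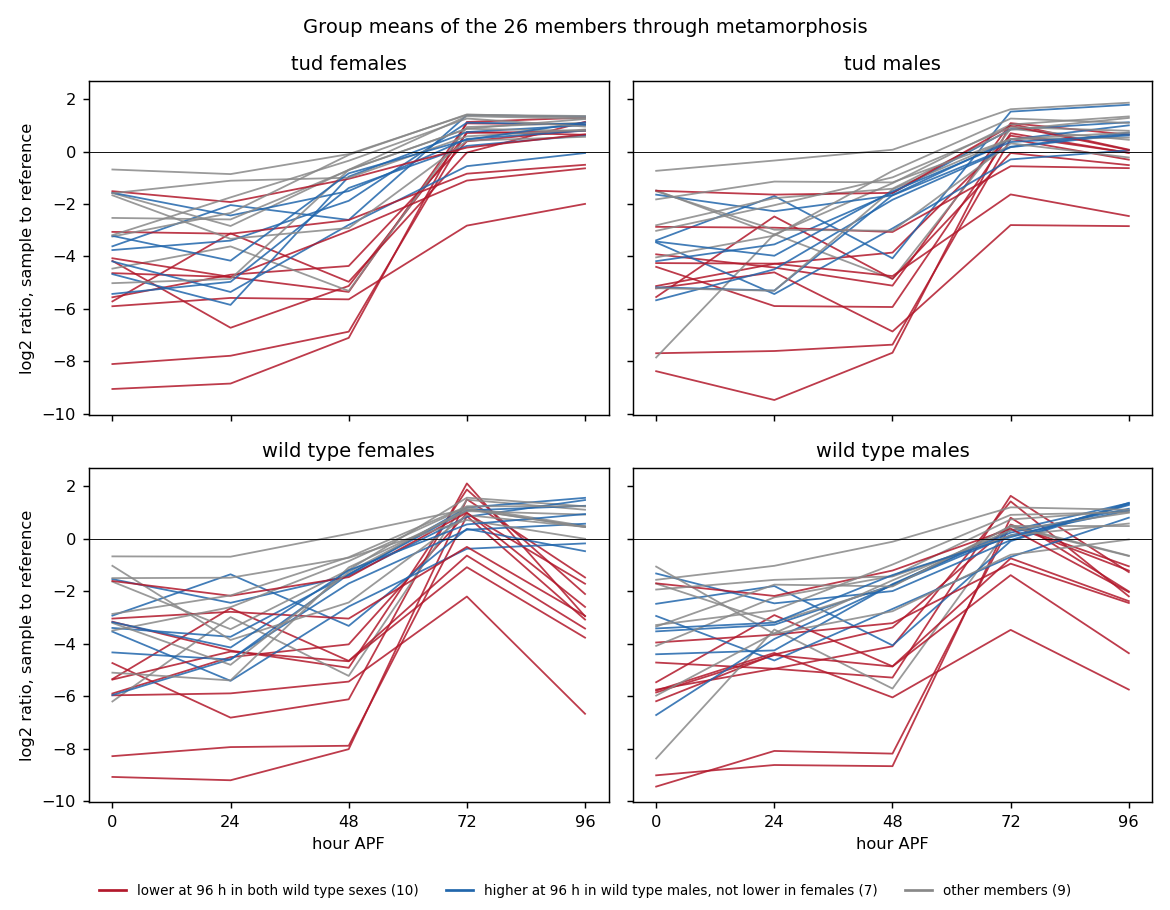
Group means of the 26 members (log2 ratio of sample to reference, vertical axis) against hour APF in tud females, tud males, wild type females and wild type males, with 1 line per member. Red lines are the 10 members that were lower at 96 than at 72 h in both wild type sexes, blue lines the 7 that were higher at 96 h in wild type males without being lower in females, and grey lines the other 9. All lines climb between 48 and 72 h, and the red lines fold down at 96 h in wild type. In tud progeny, where the mean of the sexes had to stay level, the red lines change by -0.11 to 1.17 in females and by -0.98 to -0.04 in males between 72 and 96 h.

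Wild type animals also rose late in the mean of 72 and 96 h, which a high value at 72 h alone can carry. In wild type females DAC030K09 changed by 3.24 between 48 and 72 h and by -4.47 between 72 and 96 h. For DAC021K23 these steps were 2.46 and -3.60, so both ended below their 48 h level. In wild type females, whose arrays were not used in choosing the members, the mean of 72 and 96 h exceeded the mean of 0, 24 and 48 h for 26 of 26 members (limma, adjusted p under 0.15), against 29.6% of all probes tested. The differences ran from 0.95 to 8.79 with a median of 3.53, where the median of all probes tested was -0.18. In wild type males 24 of 24 members tested rose, against 29% of all probes, the other 2 having too few values, by 0.87 to 8.32 with a median of 3.44 and a median of -0.06 over all probes. The values of all 6 late arrays lay above those of all 9 early arrays for 20 of 26 members in females (8.17% of all probes) and, in males, for 19 of 25 (7.33%). Between 48 and 72 h 26 of 26 members rose in females (19.4% of all probes) and 25 of 25 in males (12%). The medians were 2.65 and 2.16 beside -0.12 over all probes in either sex. The median step of the members between 24 and 48 h was smaller, 0.96 in females and 0.83 in males. For some members it was the larger step. In females up, Act79B and Gpo1 rose by 2.83, 2.89 and 3.26 between 24 and 48 h and by 2.20, 2.05 and 2.43 between 48 and 72 h.

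**Figure D2:**
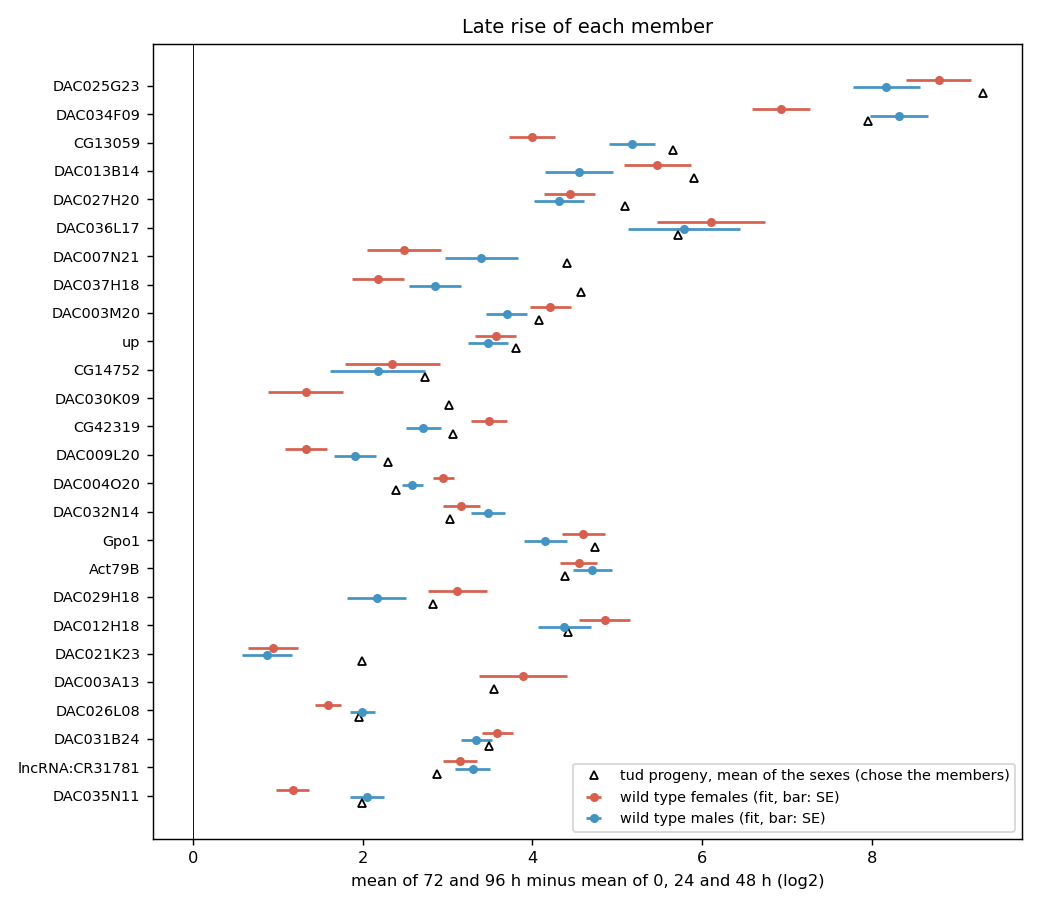
Late rise of each of the 26 members, as the mean of 72 and 96 h minus the mean of 0, 24 and 48 h on the log2 scale (horizontal axis), in wild type females (red) and wild type males (blue) with bars of 1 standard error of the fit, and in tud progeny (triangles, the values that chose the members). Every wild type estimate lies to the right of 0, from 0.87 to 8.79, and 2 members have no male estimate because a group held too few values.

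The muscle genes up and Act79B and the shuttle enzyme Gpo1 rose in 2 stages. In wild type females the 0 h arrays of up read -3.40, -3.61 and -3.61, the 24 h arrays -5.59, -5.09 and -5.58, and the 2 arrays with a value at 48 h -2.19 and -2.98. At 72 h the readings were -0.47, -0.10 and -0.58, and by 96 h -0.38, -0.04 and -0.12. Every late value of up in females thus lay above every early value, and the lowest values were those at 24 h. In wild type males the early readings of up were -3.06, -2.97 and -2.81 at 0 h, then -3.15, -5.41 and -5.37 a day later and -2.72, -2.38 and -2.94 at 48 h. The late readings were -0.35, -1.14 and -0.60 on the 72 h arrays and 0.91, 0.73 and 0.76 on the 96 h arrays. The male values again did not overlap between early and late hours, and those at 96 h lay above all those at 72 h. The late rise of up was 3.57 (SE 0.25, adjusted p = 1.58e-16) in females and 3.48 (SE 0.24, adjusted p = 2.22e-16) in males.

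Act79B climbed from a lower start. In wild type females the 0 h arrays read -6.09, -6.06 and -5.74, the 24 h arrays -4.53, -4.29 and -4.97, and the 48 h arrays -0.99, -2.07 and -2.06. At 72 h the values were 0.44, 0.35 and 0.23, followed by 0.94, 0.49 and 0.28 on the 96 h arrays. Successive hours did not overlap up to 72 h, after which the values of 96 h spread across those of 72 h. The late rise of Act79B was 4.54 (SE 0.22, adjusted p = 1.55e-21) in females and 4.71 (SE 0.23, adjusted p = 3.61e-21) in males. Gpo1 climbed only after 24 h in wild type females, with 0 h values of -4.63, -4.14 and -4.24, 24 h values of -4.81, -4.64 and -4.38, 48 h values of -0.87, -1.68 and -1.52, 72 h values of 1.09, 0.93 and 1.21, and 96 h values of 1.13, 1.34 and 1.29. The values of 0 and 24 h overlapped, as did those of 72 and 96 h, while early and late values did not. The late rise of Gpo1 was 4.60 (SE 0.26, adjusted p = 6.68e-20) in females and 4.15 (SE 0.26, adjusted p = 4.23e-18) in males. The wild type male 24 h replicate 1 stood apart for these 3 genes, at -3.15 for up, -2.37 for Act79B and -2.15 for Gpo1, where the other 2 arrays lay between -5.41 and -4.53.

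The rise was also seen for other probes of a list of sarcomere and muscle genes. Of 19 probes tested in wild type females 15 rose and 3 fell, where 29.6% of all probes rose. Of 19 in males 15 rose and 2 fell, where 29% of all probes rose. The medians were 3.57 and 3.64 beside the medians over all probes of -0.18 and -0.06. The same shares of all probes stand beside the lists that follow. Listed probes have names only through the study's own gene lists, so all probes are not a like background. Among those that rose in females without being members were fln (flightin, a thick filament protein of flight muscle) by 8.15, Scp1 (a calcium-binding protein) by 7.66, TpnC4 (a troponin C) by 6.37, the myosin light chain genes Mlc2 by 5.35 and Mlc1 by 4.65, and the tropomyosin gene Tm1, with 2 probes, by 4.46 and 3.51. Those that fell in females were Argk1 (arginine kinase), Zasp52 and tmod. The members up and Act79B are thus 2 of 15 probes of the list with a late rise in females, and Mlc1 and Mlc2 missed membership with tud rises of 1.47 and 1.32. Of the list of glycolysis and flight fuel, which holds Gpo1, 8 of 8 probes rose in females and 6 of 7 in males. Gpdh1, the cytosolic partner of Gpo1 in the shuttle, rose by 4.56 in females, with a step of 5.42 between 72 and 96 h that also passed the threshold. Of the list of mitochondrial energy metabolism, which held no member, 12 of 13 probes rose in females and 12 of 16 in males and none fell in either. Of the cuticle and pigmentation list, which also held no member, 12 of 28 probes rose and 8 fell in females.

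CG13059 and the unnamed DAC025G23 and DAC034F09 showed the steepest steps. In wild type females CG13059 read -5.49, -4.36 and -4.92 at 48 h, 1.78, 1.77 and 2.07 at 72 h and -2.07, -2.07 and -2.19 at 96 h. In wild type males it read -5.50, -5.19 and -5.20 at 48 h, 1.59, 1.57 and 1.75 at 72 h and -1.24, -1.07 and -1.51 at 96 h. In both sexes the 3 arrays at 72 h were the highest of all 15 and those at 96 h lay between them and the early hours. The late rise of CG13059 was 4.00 (SE 0.27, adjusted p = 5.88e-17) in females and 5.17 (SE 0.27, adjusted p = 2.43e-20) in males. DAC025G23 went from -8.60, -7.44 and -8.04 at 48 h to 1.09, 1.58 and 1.83 at 72 h and -1.34, -1.66 and -1.43 at 96 h in wild type females. For DAC034F09 the corresponding values were -6.87, -8.76 and -8.05, then 0.61, 1.09 and 0.88, then -3.36, -2.94 and -2.95. On every wild type female array before 72 h both lay below all of their late values. Their late rises in females were 8.79 (SE 0.38, adjusted p = 3.74e-23) and 6.93 (SE 0.34, adjusted p = 1.47e-21), and in males 8.17 (SE 0.39, adjusted p = 3.07e-21) and 8.32 (SE 0.34, adjusted p = 8.51e-24).

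For CG42319 and lncRNA:CR31781 the change between 72 and 96 h did not pass the threshold in either wild type sex. In wild type females CG42319 read -0.75, -1.45 and -1.36 at 48 h, 1.39, 1.49 and 1.81 at 72 h and 1.30, 1.17 and 1.23 at 96 h. In wild type males it read 0.42, 0.25 and 0.79 at 72 h and 0.35, 0.42 and 0.68 at 96 h. All 3 female values at 72 h lay above those at 96 h (96 minus 72 h -0.33, SE 0.32, adjusted p = 0.421), and each female late value of CG42319 lay above each male one. For lncRNA:CR31781 the wild type female arrays gave 1.25, 1.34 and 1.13 on the plateau's first day and 0.86, 1.55 and 1.30 on its second. The male arrays gave 0.87, 0.80 and 1.05, followed by 0.96, 0.80 and 1.28. The hours overlapped within each sex for lncRNA:CR31781. Late rises of 3.49 (SE 0.21) and 2.72 (SE 0.20) for CG42319 and of 3.15 (SE 0.20) and 3.30 (SE 0.21) for lncRNA:CR31781, in females and males, all passed the threshold.

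**Figure D3:**
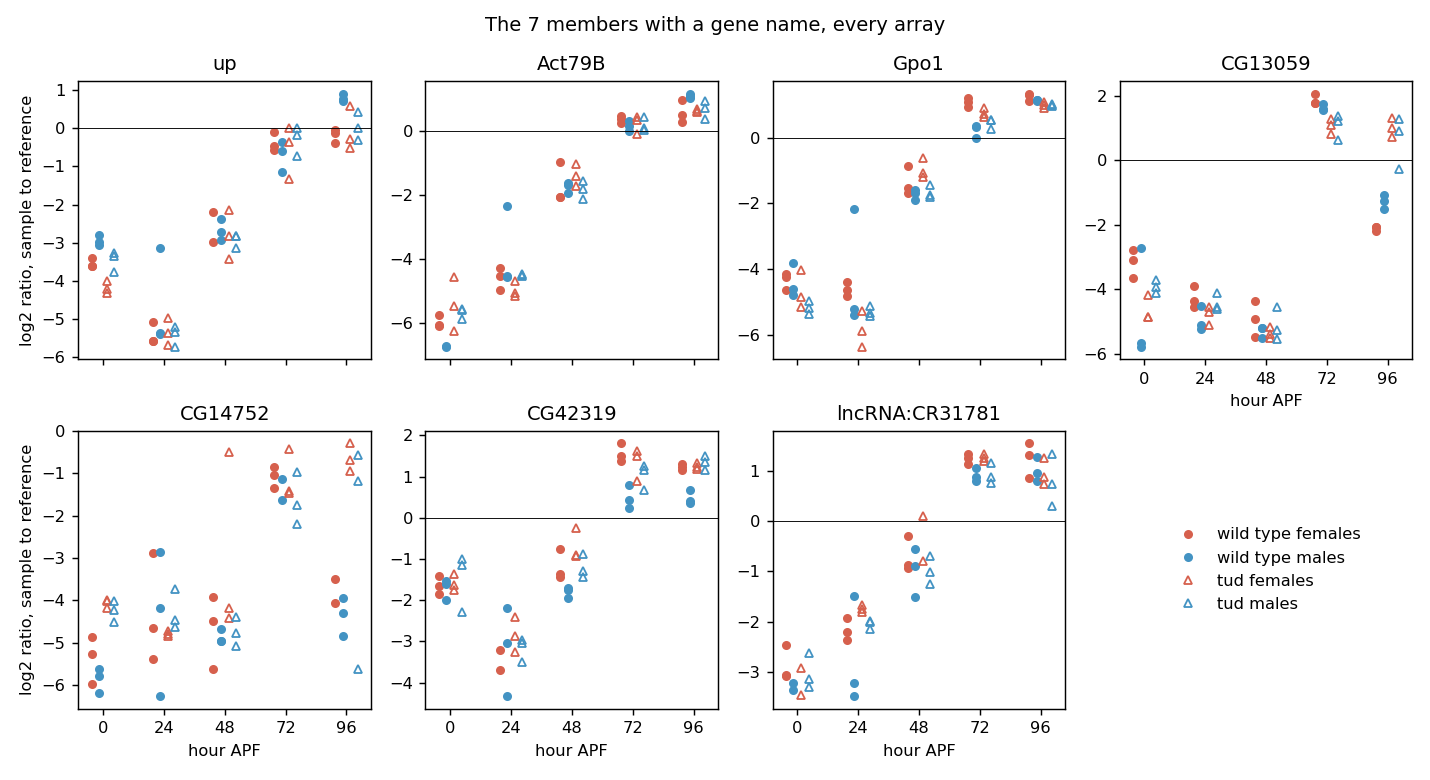
Log2 ratio of sample to reference (vertical axis, a separate scale for each gene) on every array against hour APF for the 7 members with a gene name, in wild type females (red points), wild type males (blue points), tud females (red triangles) and tud males (blue triangles). For CG13059 and CG14752 the wild type points at 96 h lie below the tud triangles of the same sex, apart from tud male replicate 3 of CG14752. In males at 96 h the wild type points also lie lower for CG42319, and higher for up, Act79B and Gpo1. Wild type male 24 h replicate 1 is the lone high point of up, Act79B and Gpo1 at that hour.

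The plateau that defined the members in tud progeny was a plateau in wild type for only some of them. Between 72 and 96 h, 13 of 26 members fell in wild type females, against 35.1% of all probes, and 1 rose, against 17.6%. In wild type males 10 fell, against 26.7% of all probes, and 8 rose, against 25.9%. The median change was -0.70 in females, where that of all probes was -0.25, and -0.05 in males, where that of all probes was -0.04. The share that fell in males was thus not far above the background. For comparison, of the 43 probes that met the late rise but were higher at 72 h by 0.5 or more in tud progeny, 42 fell in wild type females and 41 in wild type males. Of the 49 that were higher at 96 h, 5 fell and 25 rose in females, and 2 fell and 42 rose in males.

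The members that fell in both wild type sexes numbered 10, namely CG13059, CG14752 and the unnamed DAC025G23, DAC034F09, DAC013B14, DAC027H20, DAC037H18, DAC030K09, DAC009L20 and DAC021K23. Their changes ran from -5.07 to -2.63 in wild type females, with a median of -3.29, and from -3.62 to -1.499 in wild type males, with a median of -2.35. The tud differences between 96 and 72 h, which the rule had limited, ran from -0.45 to 0.39 for the same 10 in the mean of the sexes. By sex they ran from -0.11 to 1.17 in tud females and from -0.98 to -0.04 in tud males with replicate 3 at 96 h included. The step of CG13059 was -3.98 (SE 0.42, adjusted p = 2.85e-10) in females and -2.91 (SE 0.42, adjusted p = 2.70e-07) in males. CG14752 read -1.06, -1.36 and -0.85 at 72 h and -4.06 and -3.49 on the 2 arrays with a value at 96 h in wild type females, and in wild type males -1.64 and -1.14 on 2 arrays at 72 h and -4.30, -3.94 and -4.85 at 96 h. The hours did not overlap in either sex. The step of CG14752 was -2.69 (SE 0.90, adjusted p = 0.0153) in females and -2.98 (SE 0.90, adjusted p = 0.00682) in males. For DAC025G23 it was -2.98 (SE 0.59) in females and -2.81 (SE 0.59) in males, and for DAC034F09 -3.94 (SE 0.53) and -1.59 (SE 0.53), all past the threshold.

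The muscle genes and Gpo1 rose further in males. Between 72 and 96 h up rose by 1.496 (SE 0.37, adjusted p = 0.000968), Act79B by 0.95 (SE 0.34, adjusted p = 0.0232) and Gpo1 by 0.91 (SE 0.40, adjusted p = 0.0602) in wild type males. In wild type females the same steps were 0.20 (SE 0.37) for up, 0.23 (SE 0.34) for Act79B and 0.18 (SE 0.40) for Gpo1, none past the threshold. The male arrays of Act79B read 0.29, -0.03 and 0.14 at 72 h and 1.01, 1.08 and 1.15 at 96 h, and those of Gpo1 read 0.37, -0.01 and 0.34 and then 1.15, 1.16 and 1.12. For both genes the male hours did not overlap. DAC007N21, DAC003M20 and DAC031B24 also rose in males without passing the threshold in females. DAC004O20 rose in both sexes, by 0.64 in females and 1.42 in males. DAC032N14 and DAC035N11 fell in females alone, DAC026L08 fell in females by 0.72 and rose in males by 0.46, and 6 members passed the threshold in neither sex. Over the sarcomere and muscle list, 13 of 20 probes rose and 2 fell between 72 and 96 h in wild type males, and 4 rose and 2 fell in wild type females, with medians of 0.99 and 0.31. The female share that rose was near the 17.6% of all probes, while in males 25.9% of all probes rose.

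**Figure D4:**
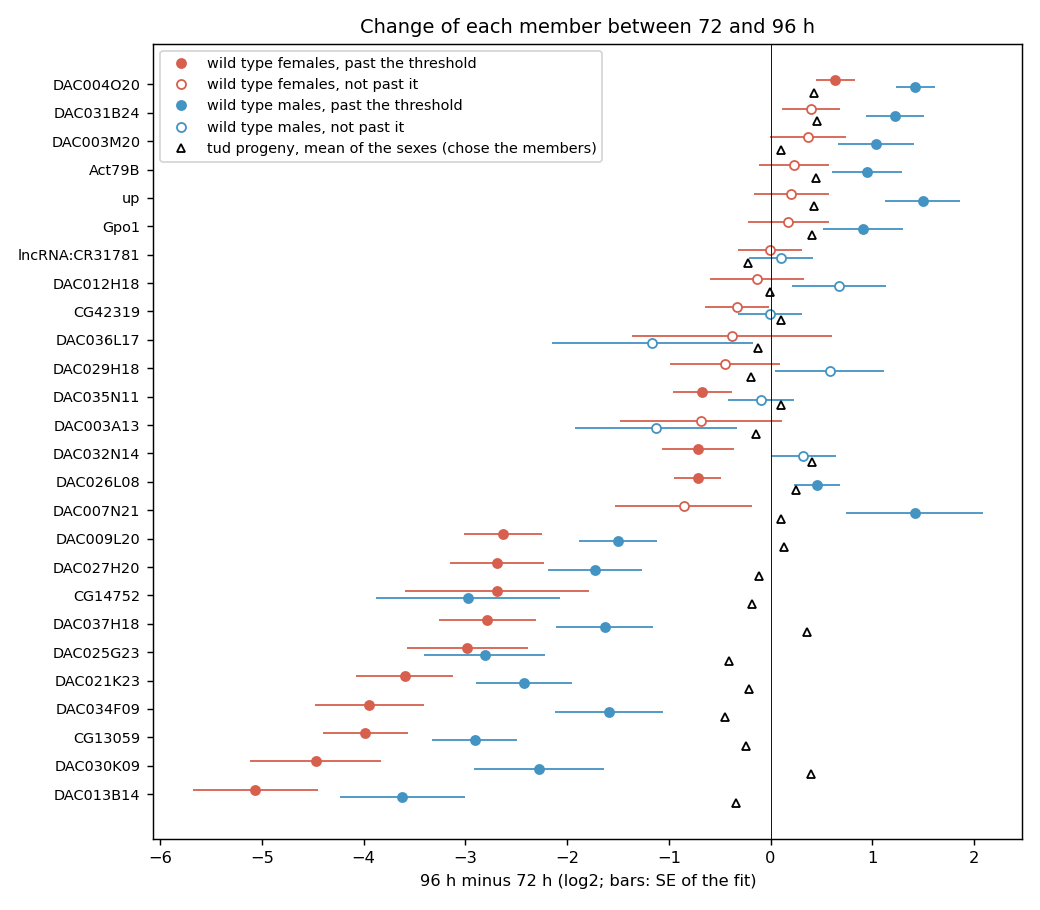
Change of each member between 72 and 96 h on the log2 scale (horizontal axis), in wild type females (red) and wild type males (blue) with bars of 1 standard error of the fit, filled where the change passed the threshold, and in tud progeny (triangles, limited to under 0.5 by the rule). The 10 members at the bottom lie between -5.07 and -1.499 in wild type, and for up, Act79B and Gpo1 the male points lie between 0.91 and 1.496.

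Whether the step between 72 and 96 h differed between the wild type sexes was tested as a difference of differences, a comparison added after the data had been seen. It passed the threshold for 6 of 26 members, all with the more positive step in males, against 9.38% of all probes in that direction and 14.9% in either. The median difference of the members was 0.89, beside 0.13 over all probes tested. The 6 were DAC034F09 with 2.35 (SE 0.75, adjusted p = 0.0488), DAC007N21 with 2.27 (SE 0.95, adjusted p = 0.147), DAC030K09 with 2.19 (SE 0.91, adjusted p = 0.145), up with 1.29 (SE 0.52, adjusted p = 0.131), DAC026L08 with 1.17 (SE 0.32, adjusted p = 0.0213) and DAC004O20 with 0.79 (SE 0.27, adjusted p = 0.0694). For Act79B and Gpo1 the difference did not pass. Centring each array on its median left 3 of the 6 past the threshold, and up was not among them (adjusted p = 0.190). The more positive step in males was not particular to the members. Of the 43 late probes higher at 72 h in tud progeny 4 passed, with a median of 0.86 over the 43. Of the 49 higher at 96 h 16 passed, with a median of 0.88, and all that passed were more positive in males.

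At 96 h the genotypes stood apart for the members that fell, which is described without a test because the tud values at 96 h had chosen the members. The 10 that fell were in turn picked by their wild type change between 72 and 96 h. Over the same hours the rule held the mean of the tud sexes near level. Where the genotypes were close at 72 h, lower wild type values of these 10 at 96 h thus follow from the choices made. In females all wild type values lay below all tud values for 15 of 26 members (30.5% of all probes) and above them for 3 (23.3%). For CG13059 the wild type female values of -2.07, -2.07 and -2.19 faced tud female values of 1.33, 1.02 and 0.74, and for DAC025G23 -1.34, -1.66 and -1.43 faced 1.10, 1.52 and 1.25. Each tud value was above 0 and each wild type value below it. Over the 10 members that fell, wild type minus tud at 96 h ran from -4.68 to -2.43 in females and from -2.91 to -0.74 in males. At 72 h wild type females lay wholly below tud females for 2 members (13.4% of all probes) and wholly above for 5 (15.5%), CG13059 among the latter. Wild type males lay wholly below tud males at 72 h for 5 members (38.5%) and above for 2 (16.4%).

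In males 1 array stood apart at 96 h. All wild type values lay below all tud values for 8 of 26 members (30.3% of all probes) and above for 6 (15.8%), the latter including up, Act79B and Gpo1. Without tud male 96 h replicate 3 the counts were 15 (40%) and 6 (21.6%). For 9 of the 10 members that fell, those with a value on it, the differences of this array from the mean of replicates 1 and 2 ran from -4.76 to -1.37, with a median of -2.53. For CG14752 it read -5.63, against -0.56 and -1.19 on the other 2 tud male arrays and -4.30, -3.94 and -4.85 in wild type males, and for CG13059 it read -0.27 against 1.27 and 0.93. For CG14752 the array thus lay below every wild type male value, and for CG13059 between the genotypes. Across probes, which are not independent replicates, it correlated with the wild type male 96 h mean at r = 0.720 (4117 probes), where replicates 1 and 2 did so at 0.512 (5616 probes) and 0.614 (4134 probes), and with replicates 1 and 2 at 0.754 and 0.784, where these 2 correlated with each other at 0.829.

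This array also entered the rule. Without it the rule gave 36 members, of which 19 were among the 26. Those lost were up, CG14752, DAC037H18, DAC030K09, DAC004O20, DAC032N14 and DAC031B24, each because 96 h then exceeded 72 h by 0.51 to 0.93 in tud progeny. Among the 19 kept, 9 fell and 0 rose between 72 and 96 h in wild type females and 7 fell and 5 rose in wild type males (limma), and 19 of 19 carried the late rise in females and 18 of 18 in males. Among the 36, 25 fell and 0 rose in females, and 22 fell and 6 rose in males. Over all probes 35.1% fell and 17.6% rose in this step in females, and 26.7% fell and 25.9% rose in males. The late rise was carried by 29.6% of all probes in females and 29% in males.

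Larval fat body genes moved in the same direction as the members that fell. The mean of 5 probes, for the larval serum proteins Lsp1alpha, Lsp1beta and Lsp1gamma and the fat body proteins Fbp1 and Fbp2, lay between -2.18 and -1.48 on the 6 wild type arrays at 72 h and between -4.96 and -4.31 on the 6 at 96 h. In tud progeny at 96 h it lay between -1.83 and -1.46 in females and at -1.90, -1.86 and, for replicate 3, -3.23 in males. The genotypes also differed earlier. At 0 h the median array read -0.33 in wild type and 0.94 in tud females, and -0.49 and 0.37 in males. At 72 h the same medians were -1.84 and -1.64 in females and -1.78 and -1.94 in males. All 5 probes fell between 72 and 96 h in both wild type sexes, while in tud progeny their differences between these hours ran from -0.67 to 0.03. The array that stood apart for the members thus stood apart for the fat body genes too. Fat body genes were not the only list with falls in this step. Of the cuticle and pigmentation probes 16 of 29 fell and 3 rose in wild type females (median -1.40), and 18 of 30 fell and 3 rose in wild type males (median -1.99), where 35.1% and 26.7% of all probes fell. Of the chemosensation probes 2 of 2 fell in both sexes, and of the immune peptide probes 3 of 6 fell and 2 rose in each sex. Other lists held more rises than falls, where 17.6% of all probes rose in females and 25.9% in males. Of the digestive enzyme probes 5 of 11 rose and 3 fell in females, and 7 of 12 rose and 2 fell in males. Of the neuron and synapse probes 3 of 5 rose in each sex, with 1 falling in females and 0 in males. The part of the fat body, the cuticle or other tissues in the fall of the members was not tested.

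**Figure D5:**
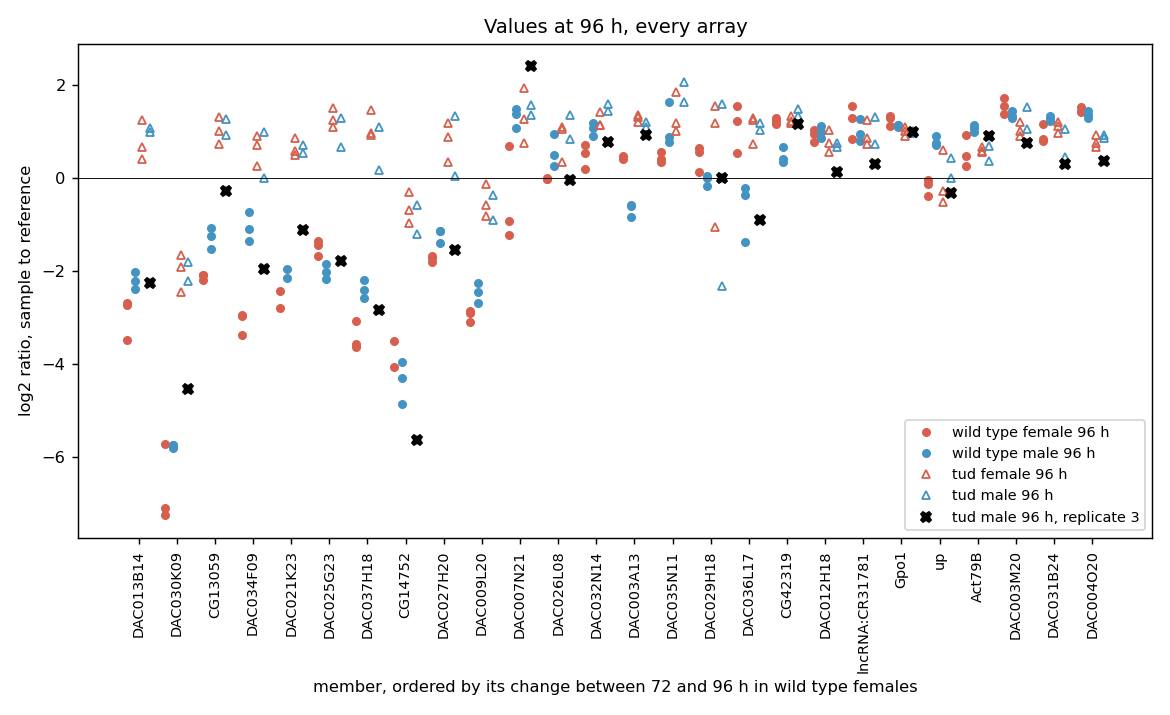
Log2 ratio of sample to reference (vertical axis) on every array at 96 h for the 26 members, ordered by their change between 72 and 96 h in wild type females, in wild type females (red points), wild type males (blue points), tud females (red triangles), tud males (blue triangles) and tud male replicate 3 (black crosses). On the left the wild type points lie below the triangles, with female differences of group means down to -4.68, and the black crosses lie below the other tud male triangles. On the right the groups lie closer together. There the wild type male points still lie above all tud male ones for up, Act79B, Gpo1, DAC004O20, DAC012H18 and DAC031B24.

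No joint sex difference of a member passed the threshold in tud progeny. In a moderated F test over the 5 hours 0 of 26 members passed the threshold (limma, 3.24% of all probes), 2 had an unadjusted p under 0.05 and the smallest adjusted p was 0.302. The mean differences of males from females over the hours ran from -0.75 to 0.27. The late rise differed between the tud sexes for 0 of 26 members (limma, 0.216% of all probes), with 1 at an unadjusted p under 0.05. At single hours 0 members passed at 0 h (limma, 0.0926% of all probes), 24 h (2.22%), 48 h (0.525%) and 72 h (0.771%). At 48 h male minus female was -1.72 (SE 0.81) for CG14752, -0.63 (SE 0.35) for lncRNA:CR31781 and 0.24 (SE 0.42) for CG13059. The paper compared the sexes directly on other arrays at 48 h. Downstream of the sex determination gene dsx it listed CG14752 and CG31781 as female-biased and CG13059 as male-biased. That set required a difference between tud males and females, so the absence of calls here does not show that these members lack one. At 96 h 1 member passed, DAC037H18 (4.32%), lower in males by 1.65 (SE 0.48, adjusted p = 0.0755), where replicate 3 read -2.83 and the mean of the other 2 male arrays was 0.63. That reading also made DAC037H18 a member, its tud difference between 96 and 72 h being 0.36 with replicate 3 and 0.93 without it. Nothing is read from this call, since the same array entered the choice of the probe.

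Wild type sexes differed more often, as did probes at large. In the joint test 14 of 24 members tested passed, against 72.4% of all probes, so that the share was below the background. Averaged over the hours, males were the higher sex for 6 of these (19% of all probes) and females for 8 (53.3%). Quantile normalization turned the split into 2 and 17. CG42319 was higher in females by 0.45 (SE 0.14, adjusted p = 0.00756), CG13059 in females by 0.41 (SE 0.19, adjusted p = 0.00783) and up in males by 0.39 (SE 0.17, adjusted p = 0.0394), where the p belongs to the joint test and the sign of up turned with quantile normalization. At 48 h, where the paper listed CG13059 as male-biased, its male minus female difference was -0.37 (SE 0.42) and did not pass. DAC013B14 was higher in males by 0.59 (SE 0.27, adjusted p = 0.00308). Act79B passed the joint test (adjusted p = 0.0927) with a mean difference of only 0.05 (SE 0.16), whose sign turned with quantile normalization, with array weights and without wild type male 24 h replicate 1. The hours did not agree in direction. Of 24 members, 4 passed at 0 h (25.3% of all probes), 6 passed at 24 h (41.3%), 3 passed at 48 h (25.2%), 6 passed at 72 h (33.7%) and 8 passed at 96 h (43.1%). At every hour the share of members was below that of all probes. All 6 at 72 h, CG42319 and Gpo1 among them, were higher in females (22.5% of all probes), and 7 of the 8 at 96 h, up and CG13059 among them, were higher in males (18.5%). At 96 h up was higher in males by 0.98 (SE 0.37, adjusted p = 0.0384) and CG42319 was the exception, higher in females by 0.75 (SE 0.32, adjusted p = 0.0647).

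The late rise itself differed between the wild type sexes for 4 of 24 members, against 20.8% of all probes. In 3 it was larger in males (11.4% of all probes), namely DAC034F09 by 1.39 (SE 0.49, adjusted p = 0.0578), CG13059 by 1.17 (SE 0.38, adjusted p = 0.0429) and DAC035N11 by 0.88 (SE 0.28, adjusted p = 0.0379). In 1 it was smaller in males (9.36%), namely CG42319 (male minus female -0.77, SE 0.29, adjusted p = 0.0839). The early values of CG13059 entered this, since its male arrays read -5.67, -5.78 and -2.72 at 0 h and its female arrays -3.08, -3.64 and -2.78.

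The difference between the genotypes in females, averaged over the 5 hours, is given as a description because the tud female arrays had entered the rule. Wild type minus tud had a median of -0.17 over the members beside -0.02 over all probes. The value was -1.12 (SE 0.37) for CG14752 and -0.996 (SE 0.24) for DAC034F09, while it was 0.23 (SE 0.09) for DAC004O20 and 0.35 (SE 0.18) for Gpo1. The threshold was passed by 12 of 26 members (36.6% of all probes), 10 of them with lower values in wild type (20.5%) and 2 with higher ones (16.1%), and nothing is read from these counts, since the fall of members at 96 h in wild type enters the average.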

How the data were processed

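Whole-animal RNA of 60 samples was hybridised against a common reference on two-colour oligonucleotide arrays. The authors deposited 1 log2 ratio (sample over reference) per spot, after global loess within each array in LIMMA and removal of spots weak in both channels. No normalization between arrays is described, and array medians ran from -0.03 to 0.32. The labels and the published methods give opposite dyes, so direction was read from roX1. The titles placed tud female 48 h replicates 1 and 2, whose other labels differ. The table had 0 unused sample columns.

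The 20 group means were estimated from all 60 arrays together by limma 3.58.1 in R 4.3.3, with empirical Bayes moderation (statmod 1.5.0). Probes with 2 or more of 3 values in every group of a comparison were tested. Following the study's level, a probe passed at an adjusted p (Benjamini-Hochberg) below 0.15. A sex difference is the male value minus the female one, a genotype difference wild type minus tud. SE is the fit's standard error. The model was tested on simulated data. Alternatives were the compared arrays alone, a replicate block, median centring, quantile normalization, all 3 values, array weights, a stricter threshold, a robust prior and each array left out. Tables and plots used Python 3.11.15, numpy 2.4.6, pandas 2.3.3 and matplotlib 3.10.9.

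The members and the gene lists were chosen with earlier results of these data known. Named in the text are the members with a gene name, those with the largest rises, those past the threshold for sex or late steps, and probes nearest each limit. The lists of sarcomere and muscle, glycolysis and flight fuel, mitochondrial energy metabolism, cuticle and pigmentation, and larval fat body are reported above. Among neuron and synapse genes 2 of 5 probes rose and 2 fell in the wild type female late rise, among chemosensation genes 0 of 2 rose and 2 fell, among phototransduction and eye genes 1 of 2 rose and 1 fell, among digestive enzymes 0 of 8 rose and 6 fell, among immune peptides 2 of 6 rose and 3 fell, and among male germline genes 0 of 7 rose and 1 fell. No probe of the female germline and yolk list was tested. Of all probes tested for the late rise in wild type females, 29.6% rose.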

Additional observations from a re-analysis of the deposited data

Results flagged for a closer look

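The results below drew attention because the same change over time differed between the wild type sexes by a test of the difference itself, with the male minus female value given on the log2 scale. For the late rise, 4 members passed at an adjusted p under 0.15 (limma). These were DAC034F09 with 1.39 (SE 0.49, adjusted p = 0.0578), CG13059 with 1.17 (SE 0.38, adjusted p = 0.0429), DAC035N11 with 0.88 (SE 0.28, adjusted p = 0.0379) and CG42319 with -0.77 (SE 0.29, adjusted p = 0.0839). Their number, 4 of 24, lay below the 20.8% of all probes that passed, and at an adjusted p under 0.05 CG13059 and DAC035N11 remained.

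For the step between 72 and 96 h, a comparison added after the data had been seen, 6 members passed, each with the more positive step in males. The values were 2.35 for DAC034F09 (adjusted p = 0.0488), 2.27 for DAC007N21 (adjusted p = 0.147), 2.19 for DAC030K09 (adjusted p = 0.145), 1.29 for up (adjusted p = 0.131), 1.17 for DAC026L08 (adjusted p = 0.0213) and 0.79 for DAC004O20 (adjusted p = 0.0694). DAC034F09 and DAC030K09 fell in both sexes and less in males, DAC004O20 rose in both and more in males, and DAC026L08 fell in females and rose in males. With arrays centred on the median 3 of the 6 passed, with an array left out 3 to 5 members did, and at an adjusted p under 0.05 DAC034F09 and DAC026L08 remained. Of all probes 9.38% passed in that direction. The late probes higher at 72 h or at 96 h in tud progeny had medians of 0.86 and 0.88 beside the 0.89 of the members.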

How the results depend on the processing

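Of the counts of members past the threshold, those for the late rise and for the steps between 48 and 72 h and between 72 and 96 h stayed within 1.5 times under every alternative run, with each array left out in turn (23 to 26 and 21 to 24 for the late rise in females and males). The members behind the counts of the last step changed more. With quantile normalization 14 of the 18 male calls were kept, 6 members rose and 10 fell in males, and 0 rose and 14 fell in females. The male median of that step moved from -0.05 to -0.57. The tud sex difference passed for 1 member with the compared arrays alone and 3 with array weights, and for 0 to 2 with an array left out, 2 without tud male 96 h replicate 1. That of the late rise passed for 0 to 1, the 1 without the same array. The wild type sex difference passed for 8 of 13 when all 3 values were required and 23 with array weights, and that of the late rise for 9 with array weights and 2 at an adjusted p under 0.05. The female genotype difference passed for 7 of 15 when all 3 values were required, where fewer members were tested. The sex difference of the step between 72 and 96 h was the least stable, with 19 for the compared arrays alone, 3 with arrays centred on the median, 16 with array weights, 2 at an adjusted p under 0.05 and 3 to 5 with an array left out (3 without wild type male 72 h replicate 2 or 3, wild type male 96 h replicate 1, 2 or 3, or wild type female 72 h replicate 2). The cause of these changes was not tested.

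The number of members was 67 with a rise of 1 or more, 14 with 2 or more, 15 with the plateau under 0.3, 42 with it under 0.75, and 21 to 36 with an array left out, the 36 without tud male 96 h replicate 3. Quantile normalization gave 31 members, 16 of them shared, median centring 29, with 24 shared. Among single results the wild type sex difference of up was -0.14 with quantile normalization, and that of Act79B -0.21 with quantile normalization, -0.013 with array weights and -0.094 without wild type male 24 h replicate 1. Median centring moved the median of all probes from -0.18 to -0.07 in the female late rise and from 0.13 to 0.01 in the sex difference of the last step, and the positive share of calls over all probes from 26.3% to 36.5% for the wild type sex difference and from 62.9% to 42.0% for that step.

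With the replicate number as a block the counts of members were those of the fit without it, for example 26 for the late rise in females and 24 in males, except that the sex difference of the step between 72 and 96 h passed for 5 in place of 6. Replicate numbers gave no sign of pairing, since deviations of same-numbered arrays correlated at a median of 0.0014 (570 pairs, -0.55 to 0.58) and of differently numbered ones at -0.0021 (1140 pairs). With 3 arrays a group small differences could not be detected.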
